A study of Mus musculus with 18 samples.

Results

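The genes described here mark the lymphocyte lineages in bulk RNA of mouse liver tumours. They are 33 of the 55335 genes in the table, chosen by name as standard lineage markers. T cells and natural killer (NK) cells are marked by 19 of them (Cd3e, Cd3d, Cd3g, Cd8a, Cd8b1, Cd4, Nkg7, Gzma, Gzmb, Gzmk, Prf1, Klrb1c, Ncr1, Trbc2, Lck, Cd2, Ccl5, Skap1 and Cd5). B cells and plasma cells are marked by the other 14 (Ms4a1, Cd79a, Cd79b, Ighm, Igkc, Jchain, Mzb1, Pax5, Blk, Fcer2a, Cr2, Fcmr, Bank1 and Tnfrsf13b).

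T cells recognise peptides through a receptor whose signal passes inward by the CD3 chains and the kinase Lck, and cytotoxic T and NK cells kill by releasing perforin and granzymes. B cells carry membrane immunoglobulin coupled to Cd79a and Cd79b; when they mature into plasma cells they switch to secreting immunoglobulin, which for IgA and IgM is joined by the J chain. The liver holds resident and circulating lymphocytes of all these kinds, and tumour tissue takes in more of them or fewer.

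The 12 bulk libraries came from hepatocellular carcinoma tissue of mice whose strain label is Prom1C-L/+;Rosa26DTA/+. In these mice a tamoxifen-activated Cre under the Prom1 promoter turns on diphtheria toxin A, which is lethal to the cell making it. In the DEN+CCl4 model the carcinogen N-nitrosodiethylamine (DEN, 1 mg/kg) was given to pups 14 days old, and carbon tetrachloride at 0.2 ml/kg (CCl4) followed for 12 to 16 weeks, starting when they were 8 weeks old. In the N-Ras+AKT model plasmids pT3-EF1a-NRasV12 and pT3-EF1a-myr-AKT (20 µg each) with the Sleeping Beauty transposase (1.6 µg) were brought into the liver by hydrodynamic tail vein injection; the age at injection is not given in the sources used here. Controls and Prom1 depletion are represented by 3 libraries each in either model. Tissue was collected 6 days after the final 4 mg tamoxifen dose in N-Ras+AKT and 16 days after it in DEN+CCl4. The design text names Prom1+/+;Rosa26DTA/+ littermates as controls and olive oil as vehicle, while the strain label is the same for controls, so whether a control lacked the Cre allele, the tamoxifen or both is not settled. The 2 models also differ in the number after the group code in their titles, whose meaning is not given, and in the time after tamoxifen. Libraries are named below by their model, group and title number.

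Library totals ran from 31306617 to 48055812 counts, and 1 count corresponded to 0.0165 to 0.0356 CPM (counts scaled to a common library size, after TMM adjustment). The hepatocyte list (Alb, Apoa1 and 6 others) summed to 57690 CPM or more in every library, with all 8 genes detected. Prom1, whose promoter drives the Cre, was at 2.17 to 16.5 CPM in N-Ras+AKT depletion against 45.4 to 78.3 CPM in its controls, and at 17.5 to 40.0 CPM in DEN+CCl4 depletion against 48.9 to 76.7 CPM. By edgeR's quasi-likelihood test the fall passed in N-Ras+AKT (log2 difference -2.90, SE 0.61, adjusted p = 0.00953). It did not pass in DEN+CCl4 (-0.995, SE 0.57, adjusted p = 0.381). Since the labels do not say that libraries of a group came from separate animals, p-values here measure only the spread between these samples. In bulk RNA, fewer cells of a type and less RNA per cell cannot be told apart.

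RefSeq promoter sequences (GRCm38.p6) were available for 21 of the 33 genes; Cd8b1, Cd4, Trbc2, Cd2, Ccl5, Skap1, Ms4a1, Cd79b, Ighm, Igkc, Mzb1 and Blk were not matched. The 3 shown belong to genes that rose with depletion in the N-Ras+AKT model and hold a match to a searched motif. Each is the 250 bases before the annotated start, on the strand of the gene, with capitals marking the match on either strand. They are the Cd8a window at chr6:71373177-71373426 on the plus strand, the Gzma window at chr13:113100982-113101231 on the minus strand and the Bank1 window at chr3:136326067-136326316 on the minus strand.
Cd8a: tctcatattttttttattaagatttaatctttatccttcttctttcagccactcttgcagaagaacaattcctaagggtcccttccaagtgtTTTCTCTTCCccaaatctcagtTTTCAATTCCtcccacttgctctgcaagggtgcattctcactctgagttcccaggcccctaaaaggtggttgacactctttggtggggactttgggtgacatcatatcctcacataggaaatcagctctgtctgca
Gzma: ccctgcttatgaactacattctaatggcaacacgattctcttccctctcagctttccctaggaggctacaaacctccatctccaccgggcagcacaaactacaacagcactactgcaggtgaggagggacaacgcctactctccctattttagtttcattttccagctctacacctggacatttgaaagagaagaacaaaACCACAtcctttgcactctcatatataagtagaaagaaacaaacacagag
Bank1: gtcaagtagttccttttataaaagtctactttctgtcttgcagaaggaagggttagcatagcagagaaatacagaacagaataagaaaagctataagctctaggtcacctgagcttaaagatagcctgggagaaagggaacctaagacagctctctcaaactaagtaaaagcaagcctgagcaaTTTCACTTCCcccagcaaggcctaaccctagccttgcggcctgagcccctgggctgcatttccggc
In Cd8a and Bank1 the capitals mark the Ets-IRF composite letters (GGAA, any 2 bases, GAAA) and in Gzma the Runx letters TGTGGT. Over all 32851 promoter windows of that length, the Ets-IRF letters were in 2.3% and the Runx letters in 14%. Among the 25 windows of the 21 matched genes, 2 held the Ets-IRF letters and 9 held the Runx letters; by gene, 7 of 13 matched T/NK genes (Nkg7, Gzma, Gzmb, Prf1, Klrb1c, Ncr1 and Lck) and 1 of 8 matched B/plasma genes (Fcer2a) had a Runx match. The Ets letters CAGGAAG were in 8 of the 25 windows and in 10.8% of all. The B cell motifs searched, the octamer ATTTGCAT (1.6% of all windows) and the EBF letters (TCCC, any 2 bases, GGGA; 0.779%), were in 0 of the 25. The GGAA core is common to the Ets and Ets-IRF letters. A match is a description of these letters only.

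Most lymphocyte genes were near the lower limit of the data. Averaged over the 12 libraries, 27 of the 33 were under 1 CPM, 18 of the 19 T/NK genes and 9 of the 14 B/plasma genes. In every library 13 stayed under 1 CPM: Cd3e, Cd3d, Cd8b1, Gzmk, Prf1, Klrb1c, Ncr1, Trbc2, Cd2, Skap1, Cd5, Blk and Fcmr. Those under 1 CPM on average but not in every library were Cd3g, Cd8a, Cd4, Nkg7, Gzmb, Lck, Ccl5, Ms4a1, Cd79a, Cd79b, Mzb1, Pax5, Fcer2a and Tnfrsf13b. The 6 with a mean over 1 CPM were Gzma, the only T/NK gene among them, and Igkc, Jchain, Ighm, Bank1 and Cr2. By group, 24 genes had a mean under 1 CPM in DEN+CCl4 controls, 28 in DEN+CCl4 depletion, 29 in N-Ras+AKT controls and 23 in N-Ras+AKT depletion. Of the 396 values, 9 were counts of 0.

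**Figure D1:**
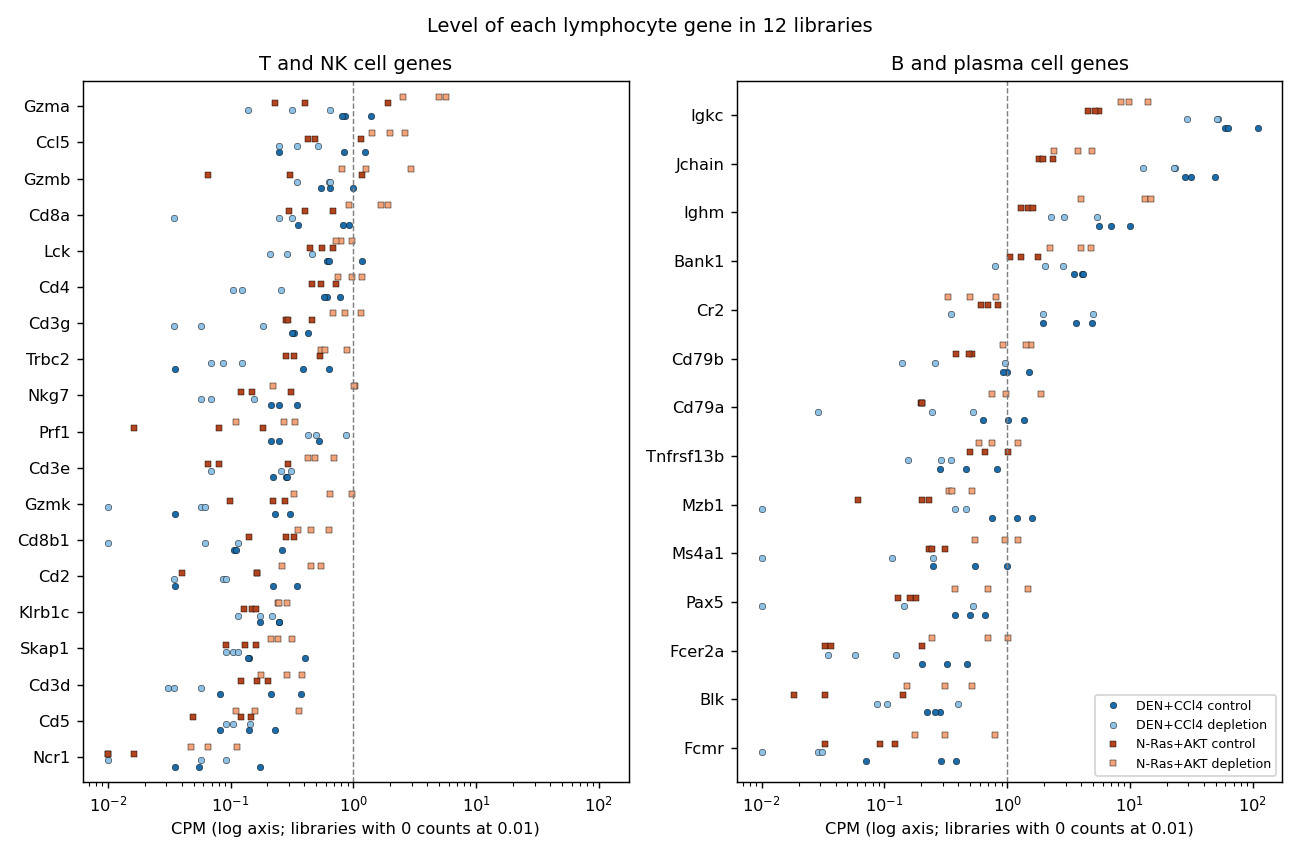
Level of each of the 33 genes in the 12 libraries, in CPM on a log axis with counts of 0 drawn at 0.01; circles are DEN+CCl4 and squares N-Ras+AKT, dark for control and pale for depletion, and the dashed line is 1 CPM. Nearly all T/NK genes lie left of the line outside N-Ras+AKT depletion, while Igkc reaches 110 CPM in a DEN+CCl4 control.

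Compared per length of merged exons, as a mean over the 12 libraries in TPM, which divides by exon length, Igkc (immunoglobulin kappa constant region) led at 139 TPM, ahead of Jchain (the J chain) at 13.1 TPM and Ighm (the mu heavy chain) at 7.33 TPM. The most abundant T/NK transcripts were Gzma (granzyme A) at 4.24 TPM, Ccl5 (a chemokine made by activated T and NK cells) at 2.57 TPM and Gzmb (granzyme B) at 1.49 TPM. Lowest of all were Skap1 (an adaptor of T cell adhesion) at 0.0594 TPM, Cd5 (an inhibitory T cell receptor) at 0.0735 TPM and Ncr1 (the NK receptor NKp46) at 0.0798 TPM. Igkc led in every group, but the order behind it depended on the group. In N-Ras+AKT depletion Igkc stood at 52.5 TPM, Ighm at 14.9 TPM, Gzma at 11.5 TPM, Ccl5 at 5.50 TPM and Jchain at 3.86 TPM.

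The filter on low counts kept 31 of the 33 genes, and Ncr1 and Cd5 were not tested. Of the 31, 5 reached the filter's level (0.25 CPM) in all 3 libraries of every group. Another 7 did so in exactly 1 group, which for 6 of them (Cd3e, Cd8b1, Gzmk, Klrb1c, Cd2 and Fcer2a) was N-Ras+AKT depletion. Those 6 genes entered the test through the group where they were high. Their calls below are therefore descriptions, as are counts and medians over the tested genes. Cd3d, Nkg7, Skap1, Blk and Fcmr were tested although they reached that level in all 3 libraries of no group. They reached it in libraries of more than 1 group, N-Ras+AKT depletion among them, so their calls are descriptions as well.

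In the N-Ras+AKT model Prom1 depletion went with higher levels of both lineages. By edgeR's quasi-likelihood test with Benjamini-Hochberg adjustment over all 17013 tested genes, 5 of 17 tested T/NK genes and 8 of 14 B/plasma genes were higher and 0 were lower, beside 12.8% of all genes called higher. The T/NK genes were Cd3e, Cd3g, Cd8a, Nkg7 and Gzma, and the B/plasma genes Cd79a, Ighm, Igkc, Pax5, Blk, Fcer2a, Fcmr and Bank1. Cd3e and Fcer2a are among those that entered the test through this depletion group. Nkg7, Blk and Fcmr reached the filter's level in all 3 libraries of no group, but did so in depletion 6 and 17 of this model. Their calls are descriptions too. The median log2 difference was 1.37 for the T/NK and 1.64 for the B/plasma genes, against -0.02 for all genes. In 13 tested T/NK genes and 12 B/plasma genes every depletion library lay above every control, beside 21.4% of all genes.

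Among the T cell receptor chains, Cd3e (CD3 epsilon) was at 0.066, 0.294 and 0.0808 CPM in N-Ras+AKT controls 3, 10 and 15 and at 0.430, 0.484 and 0.699 CPM in depletion 6, 11 and 17. The groups did not overlap, and the log2 difference was 1.85 (SE 0.58, adjusted p = 0.0385). Cd3g (CD3 gamma) went from 0.281, 0.294 and 0.465 to 0.860, 0.683 and 1.15 CPM, also without overlap (1.37, SE 0.42, adjusted p = 0.0352). For Cd3d (CD3 delta), 0.165, 0.203 and 0.121 CPM in controls stood beside 0.287, 0.176 and 0.384 CPM, with overlap (0.78, SE 0.52, adjusted p = 0.302). Trbc2, the constant region of the receptor beta chain, did not pass either (0.81, SE 0.58, adjusted p = 0.332).

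Of the co-receptors, Cd8a, carried by cytotoxic T cells, was at 0.297, 0.681 and 0.404 CPM in controls and 1.67, 0.925 and 1.92 CPM with depletion. All 3 depletion libraries were above the controls (log2 difference 1.70, SE 0.53, adjusted p = 0.0382). Its partner Cd8b1 had a log2 difference of 0.92 (SE 0.55, adjusted p = 0.245). The helper co-receptor Cd4 was at 0.544, 0.718 and 0.465 CPM against 0.980, 0.749 and 1.17 CPM, which is a log2 difference of 0.74 (SE 0.34, adjusted p = 0.137) with no overlap. Cd8a counts per Cd4 count were 0.545, 0.949 and 0.870 in controls and 1.71, 1.24 and 1.63 with depletion, again without overlap.

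The cytotoxic genes held the T/NK gene of the largest difference. Gzma was at 0.231, 1.93 and 0.404 CPM in controls 3, 10 and 15 and at 5.0, 2.53 and 5.73 CPM in depletion 6, 11 and 17, a 5.15-fold difference (log2 2.37, SE 0.70, adjusted p = 0.0330). Control 10 stood far above the other controls but below every depletion library. Nkg7, a granule membrane protein, was at 0.148, 0.313 and 0.121 CPM against 1.03, 0.220 and 1.01 CPM (1.94, SE 0.59, adjusted p = 0.0334), and depletion 11 lay within the control range. Gzmb (1.70, SE 0.76, adjusted p = 0.127), Gzmk (1.70, SE 0.64, adjusted p = 0.0731) and the perforin gene Prf1 (1.33, SE 0.71, adjusted p = 0.192) did not pass. Reads of Gzmk may include some of Esm1, which overlaps it on the opposite strand and averaged 11.8 CPM, and how strand was treated is not given in the sources used here.

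The NK receptors gave little signal. Klrb1c (NK1.1) was at 0.129 to 0.162 CPM in controls and 0.242 to 0.287 CPM with depletion, without overlap (0.81, SE 0.38, adjusted p = 0.145). Its gene overlaps Gm44511 on the same strand (1.2 CPM on average), so its counts are uncertain. Ncr1 had 1 count over the 3 controls and 10 over the depletion libraries, a ratio of 12.5 with a 95% counting interval from 1.78 to 542. Among signalling and adhesion genes, Cd2 (1.72, SE 0.64, adjusted p = 0.0701), Skap1 (0.99, SE 0.49, adjusted p = 0.159) and Lck (0.56, SE 0.37, adjusted p = 0.294) did not pass, and neither did Ccl5 (1.55, SE 0.53, adjusted p = 0.0525). For each of these 4 the depletion libraries lay above all controls.

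Among the B cell receptor genes Ighm showed the largest difference of all 31 tested. It was at 1.49, 1.29 and 1.62 CPM in N-Ras+AKT controls and at 13.3, 3.96 and 14.8 CPM with depletion. Every depletion library was above every control, and the 7.31-fold difference (log2 2.87, SE 0.48, adjusted p = 0.00451) passed in all 19 alternatives run. Cd79a, a signalling partner of the receptor, was at 0.198, 0.203 and 0.202 CPM in controls and at 0.980, 0.749 and 1.87 CPM with depletion (2.56, SE 0.63, adjusted p = 0.0147). The other partner, Cd79b, was at 0.380 to 0.515 against 0.925 to 1.58 CPM (1.5, SE 0.52, adjusted p = 0.0553). Igkc rose less, from 4.57, 5.59 and 5.21 to 9.85, 8.39 and 13.9 CPM (1.07, SE 0.30, adjusted p = 0.0257).

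B cell surface receptors differed among themselves. Fcer2a, the low-affinity IgE receptor CD23 of naive follicular B cells, was at 0.033, 0.0368 and 0.202 CPM in controls and 0.693, 0.242 and 1.01 CPM with depletion (2.85, SE 0.72, adjusted p = 0.0169). Fcmr, the IgM receptor, was at 0.033, 0.092 and 0.121 against 0.311, 0.176 and 0.790 CPM (2.36, SE 0.73, adjusted p = 0.0364). In both, the groups stayed apart. Ms4a1 (CD20) was at 0.231 to 0.313 against 0.550 to 1.22 CPM (1.78, SE 0.63, adjusted p = 0.0587). Cr2, the complement receptor CD21, which follicular dendritic cells also carry, was at 0.611, 0.699 and 0.848 CPM in controls and 0.502, 0.330 and 0.812 CPM with depletion (-0.39, SE 0.72, adjusted p = 0.739), the single tested lymphocyte gene with an estimate below 0 in this comparison.

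The B cell regulators passed together. Pax5, the transcription factor that fixes B cell identity, was at 0.181, 0.129 and 0.162 against 0.693, 0.374 and 1.47 CPM (2.40, SE 0.77, adjusted p = 0.0415). The Src-family kinase Blk was at 0.033, 0.0184 and 0.141 against 0.311, 0.154 and 0.519 CPM (2.34, SE 0.76, adjusted p = 0.0442). Bank1, a scaffold of B cell receptor signalling, was at 1.06, 1.78 and 1.29 against 3.99, 2.22 and 4.80 CPM (1.41, SE 0.40, adjusted p = 0.0269). Of the genes of the secretory stage, Jchain was at 1.83, 1.95 and 2.34 against 3.8, 2.42 and 4.94 CPM (0.87, SE 0.32, adjusted p = 0.0735), and Mzb1, a chaperone of IgM assembly, had a log2 difference of 1.25 (SE 0.74, adjusted p = 0.238). Tnfrsf13b (TACI, a receptor for the survival factors BAFF and APRIL) overlapped between the groups (0.24, SE 0.45, adjusted p = 0.740).

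These calls rested on few libraries. Without N-Ras+AKT control 3, control 15, depletion 6 or depletion 17, 0 of the 5 T/NK calls passed; without DEN+CCl4 control 8, which enters through the shared spread, Nkg7 and Gzma alone of the 5 did. Of the 8 B/plasma calls, Ighm alone passed without depletion 17, Cd79a and Ighm without control 3, Ighm, Blk and Fcer2a without control 15, and Cd79a, Ighm, Igkc and Fcer2a without depletion 6. Without N-Ras+AKT control 10, or without DEN+CCl4 control 13, 5 of the 8 passed (Cd79a, Ighm, Igkc, Fcer2a and Bank1). Scaling by total counts lowered the log2 differences of all genes by a median of 0.20 here, so that 1326 genes in all were higher and 3227 lower instead of 2186 and 1841, and it left 3 T/NK calls (Cd3e, Nkg7 and Gzma) and 6 B/plasma calls.

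**Figure D2:**
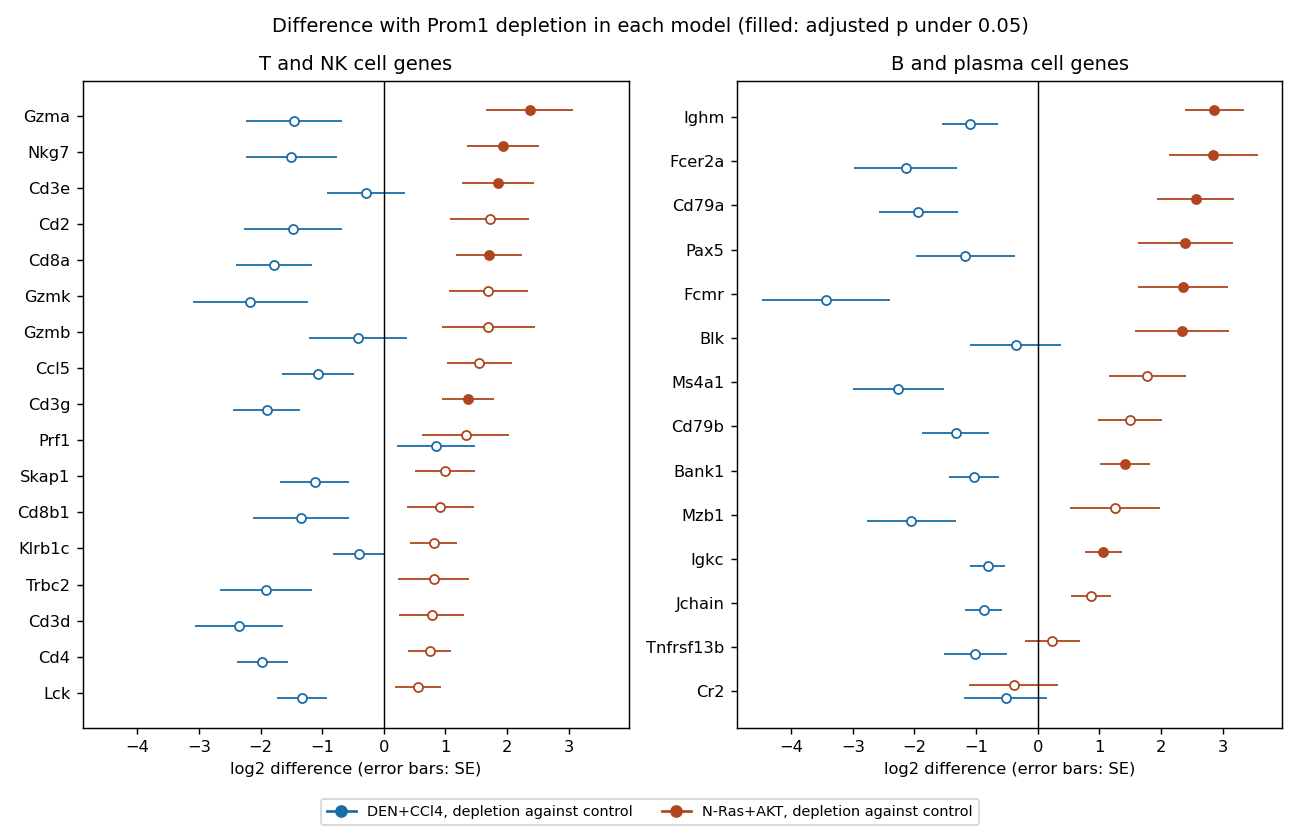
Log2 difference between Prom1 depletion and control libraries in DEN+CCl4 (blue) and N-Ras+AKT (red) for the 31 tested genes, with error bars of 1 SE; filled points passed at an adjusted p under 0.05. The blue points lie left of 0 except Prf1 (0.84), and the red points lie right of 0 except Cr2 (-0.39).

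In the DEN+CCl4 model the estimates pointed to lower levels with depletion, but 0 of the 31 tested genes passed edgeR's test. Few genes did in that model, 0.37% of all (0.112% higher and 0.259% lower). At an unadjusted p under 0.05 there were 7 T/NK and 10 B/plasma genes, all lower, beside 11.1% of all genes lower and 7.63% higher at that level. Of the other tools run, DESeq2 called Cd4 (adjusted p = 0.00661) and Ms4a1 (adjusted p = 0.0387) lower, and limma voom called 0. The median log2 difference was -1.46 for T/NK and -1.14 for B/plasma genes, against -0.01 for all genes. Every depletion library was below every control for 8 T/NK genes (Cd3d, Cd3g, Cd8a, Cd4, Nkg7, Gzma, Lck and Skap1) and 9 B/plasma genes, beside 16% of all genes.

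Cd4 had the smallest adjusted p of the lymphocyte genes in this model. It was at 0.605, 0.579 and 0.781 CPM in DEN+CCl4 controls 7, 8 and 13 and at 0.104, 0.259 and 0.123 CPM in depletion 6, 9 and 10 (-1.97, SE 0.41, adjusted p = 0.0589). Cd3g was at 0.427, 0.331 and 0.318 against 0.0348, 0.0575 and 0.185 CPM (-1.90, SE 0.55, adjusted p = 0.107). Cd3d gave -2.34 (SE 0.71, adjusted p = 0.121), whereas Cd3e, at 0.221 to 0.289 in controls and 0.0696, 0.259 and 0.308 CPM with depletion, overlapped (-0.29, SE 0.63, adjusted p = 0.850). The 3 CD3 chains therefore did not give 1 picture. Without depletion 6 the estimate for Cd3e was 0.10. The CD8 chains gave -1.78 for Cd8a (SE 0.61, adjusted p = 0.160) and -1.34 for Cd8b1 (SE 0.78, adjusted p = 0.381).

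The cytotoxic genes spread more widely. Gzma was at 0.854, 1.41 and 0.810 against 0.139, 0.316 and 0.648 CPM (-1.46, SE 0.78, adjusted p = 0.342), and Gzmk was at 0.0356 to 0.303 against 0, 0.0575 and 0.0617 CPM (-2.17, SE 0.93, adjusted p = 0.238). Gzmb overlapped between the groups, at 0.550 to 0.993 against 0.348 to 0.648 CPM (-0.42, SE 0.80, adjusted p = 0.825). Prf1, the pore-forming perforin, was at 0.214, 0.248 and 0.521 CPM in controls and 0.871, 0.431 and 0.493 CPM with depletion (0.84, SE 0.63, adjusted p = 0.504), the single tested lymphocyte gene with an estimate above 0. Of the remaining T/NK genes, Lck (-1.33, SE 0.40, adjusted p = 0.120) had the smallest adjusted p and Klrb1c (-0.41, SE 0.42) the smallest difference. The log2 differences of the others were -1.91 for Trbc2, -1.5 for Nkg7, -1.47 for Cd2, -1.12 for Skap1 and -1.07 for Ccl5.

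All 14 B/plasma genes had estimates below 0. Ms4a1 was at 0.249, 0.993 and 0.550 CPM in controls and 0, 0.115 and 0.247 CPM with depletion (-2.26, SE 0.74, adjusted p = 0.141). Fcmr had 26 counts over the controls and 2 over the depletion libraries, a ratio of 0.0793 with a 95% counting interval from 0.00912 to 0.317. The receptor partners were at 0.641 to 1.38 against 0.0287 to 0.524 CPM for Cd79a (-1.94, SE 0.65, adjusted p = 0.150) and at 0.926 to 1.52 against 0.139 to 0.956 CPM for Cd79b (-1.33, SE 0.54, adjusted p = 0.218). Both showed depletion 10 as the highest of its group. Without depletion 10, Cd3g (adjusted p = 0.0372) and Cd79b (adjusted p = 0.0282) passed, and over all genes 154 were higher and 311 lower instead of 19 and 44.

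Igkc and Jchain were far above the other lymphocyte genes in both groups of the DEN+CCl4 model. Igkc was at 59.9, 110 and 63.2 CPM in controls and 52.5, 29.0 and 51.3 CPM with depletion (-0.81, SE 0.28, adjusted p = 0.169). Jchain was at 27.9, 49.4 and 31.2 against 23.4, 12.7 and 23.1 CPM (-0.88, SE 0.30, adjusted p = 0.160). Ighm was at 5.59, 7.00 and 9.98 against 2.89, 2.27 and 5.40 CPM (-1.10, SE 0.46, adjusted p = 0.232). In all 3 the groups lay apart, and depletion 9 was lowest. Mzb1 (-2.05, SE 0.72, adjusted p = 0.166), Fcer2a (-2.14, SE 0.84, adjusted p = 0.203), Pax5 (-1.17, SE 0.80), Bank1 (-1.03, SE 0.41), Tnfrsf13b (-1.01, SE 0.51), Cr2 (-0.52, SE 0.67) and Blk (-0.36, SE 0.74) did not pass. Without depletion 9 the estimate for Blk was 0.01.

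The depletion effect was tested between the models directly. The N-Ras+AKT effect minus the DEN+CCl4 effect was above 0 and passed for 8 T/NK genes (Cd3d, Cd3g, Cd8a, Cd4, Nkg7, Gzma, Gzmk and Lck) and 9 B/plasma genes (Ms4a1, Cd79a, Cd79b, Ighm, Igkc, Jchain, Fcer2a, Fcmr and Bank1), beside 7.98% of all genes, and 0 passed below 0, beside 3.6% of all genes. The median log2 difference of effects was 2.72 for T/NK and 3.07 for B/plasma genes, against -0.03 for all. Cd3g had 3.27 (SE 0.69, adjusted p = 0.0158), Cd4 2.72 (SE 0.54, adjusted p = 0.0133), Ighm 3.97 (SE 0.66, adjusted p = 0.00996) and Cd79a 4.50 (SE 0.90, adjusted p = 0.0135). Ighm and Cd79a passed in all 18 alternatives run, and Cd3g, Cd4, Igkc, Fcer2a and Fcmr in 17. For Cd4, Cd3d, Gzmk and Lck, and for Ms4a1, Cd79b and Jchain, the difference of effects passed although neither effect alone did in edgeR.

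Single libraries decided many of these differences of effects. Of the 8 T/NK calls, 2 (Cd3g and Cd4) passed without DEN+CCl4 control 13, N-Ras+AKT control 15 or N-Ras+AKT depletion 17. Cd3g, Cd8a and Cd4 passed without DEN+CCl4 depletion 6, DEN+CCl4 depletion 9, N-Ras+AKT control 3 or N-Ras+AKT depletion 6, and 4 of the 8 did without DEN+CCl4 control 7 or 8. Of the 9 B/plasma calls, 5 (Cd79a, Ighm, Igkc, Fcer2a and Fcmr) passed without N-Ras+AKT control 3, control 15 or depletion 17, and 6 without DEN+CCl4 control 8 or depletion 9. With DEN+CCl4 depletion 6 and N-Ras+AKT depletion 17 removed together, a choice made after the data were seen, 0 of the T/NK calls and 3 of the B/plasma calls (Cd79a, Ighm and Bank1) passed. Scaling by total counts shifted all genes by a median of -0.33 here and turned 1357 higher and 613 lower calls over all genes into 827 and 2143.

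The controls of the 2 models were compared next. Of the 14 B/plasma genes 7 were lower in N-Ras+AKT than in DEN+CCl4 controls (Cd79a, Ighm, Igkc, Jchain, Mzb1, Cr2 and Bank1), beside 19.8% of all genes, and 0 were higher. Of the 17 tested T/NK genes 0 passed in edgeR, beside 40.6% of all genes in either direction, and 1 had an unadjusted p under 0.05; DESeq2 and limma voom each called Prf1 lower. The median log2 difference was -1.93 for B/plasma and -0.47 for T/NK genes, against 0.04 for all. Scaling by total counts raised all genes by a median of 0.65 in this comparison, which turned 3538 higher and 3363 lower calls over all genes into 9401 and 1059, brought the B/plasma median to -1.29 and turned the T/NK median to 0.16; Cr2 and Bank1 then did not pass, which left 5 of the 7 B/plasma calls. No direction is therefore given for the T/NK genes. Without N-Ras+AKT control 10, in which Gzma and Gzmb were highest among the controls of that model, Cd3e (-1.81, adjusted p = 0.0429), Gzma (-1.70, adjusted p = 0.0408) and Prf1 (-2.75, adjusted p = 0.0216) passed as lower.

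Igkc and Jchain had the largest differences among the 7. Igkc was at 4.57 to 5.59 CPM in N-Ras+AKT controls against 59.9 to 110 CPM, a 15.2-fold lower level (-3.92, SE 0.32, adjusted p = 2.01e-05). Jchain was at 1.83 to 2.34 against 27.9 to 49.4 CPM, 17.7-fold lower (-4.15, SE 0.34, adjusted p = 2.01e-05). Ighm was at 1.29 to 1.62 against 5.59 to 9.98 CPM (-2.36, SE 0.48, adjusted p = 0.00281). All 3 passed in all 19 alternatives. The other 4 were Mzb1 (-2.81, SE 0.73, adjusted p = 0.00932), Cd79a (-2.32, SE 0.63, adjusted p = 0.0123), Cr2 (-2.28, SE 0.70, adjusted p = 0.0241) and Bank1 (-1.49, SE 0.41, adjusted p = 0.0122). Cr2 also did not pass with no filter on low counts, or without DEN+CCl4 control 7 or 8 or N-Ras+AKT control 3, 10 or 15. In 11 of the 14 B/plasma genes, all 7 called ones among them, every N-Ras+AKT control lay below every DEN+CCl4 control. That held for 26.1% of all genes.

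**Figure D3:**
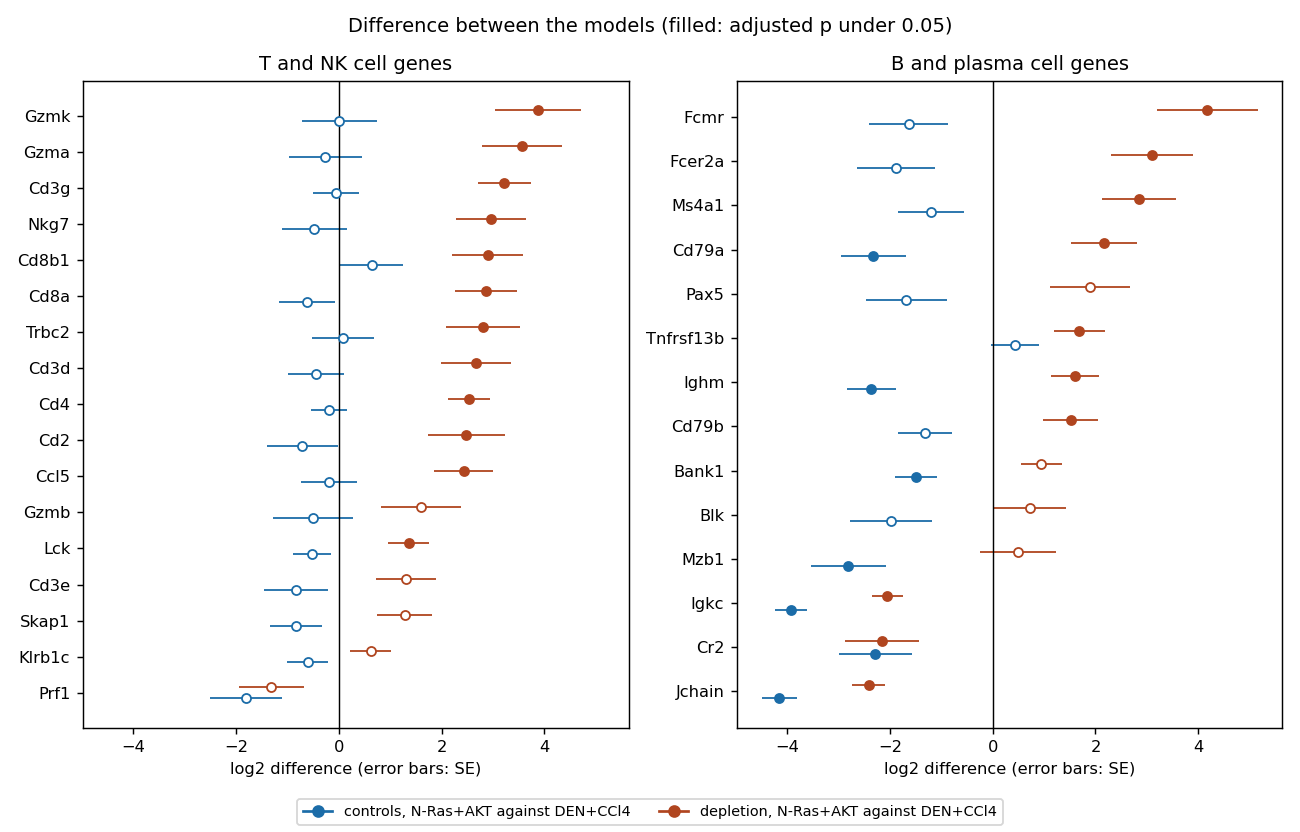
Log2 difference between N-Ras+AKT and DEN+CCl4 libraries for the 31 tested genes, among controls (blue) and among depletion libraries (red), with error bars of 1 SE and filled points for an adjusted p under 0.05. Igkc and Jchain lie left of 0 in both, while most T/NK genes lie near 0 among controls and right of 0 among depletion libraries, 12 of them filled.

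Among depletion libraries, 12 T/NK genes were higher in N-Ras+AKT than in DEN+CCl4 (Cd3d, Cd3g, Cd8a, Cd8b1, Cd4, Nkg7, Gzma, Gzmk, Trbc2, Lck, Cd2 and Ccl5), beside 17.9% of all genes, and 0 were lower. Cd3g was at 0.683 to 1.15 against 0.0348 to 0.185 CPM, 9.34-fold higher (3.22, SE 0.52, adjusted p = 0.000725). The B/plasma genes split: 7 were higher (Ms4a1, Cd79a, Cd79b, Ighm, Fcer2a, Fcmr and Tnfrsf13b) and 3 lower (Igkc, Jchain and Cr2), beside 15.8% of all genes lower. For Igkc and Jchain the models lay apart, as they did in that direction for 22.3% of all genes. Igkc was at 8.39 to 13.9 against 29.0 to 52.5 CPM (-2.04, SE 0.30, adjusted p = 0.000523), while Ighm was at 13.3, 3.96 and 14.8 against 2.27 to 5.40 CPM (1.60, SE 0.46, adjusted p = 0.0208). Fcmr had 56 counts over the 3 N-Ras+AKT depletion libraries and 2 over the DEN+CCl4 ones, a ratio of 20.4 with a 95% counting interval from 5.39 to 173. Of the 7 higher B/plasma calls 4 passed without DEN+CCl4 depletion 6 or 9, or without N-Ras+AKT depletion 6 or 17. Among the lower calls, Igkc and Jchain passed in all 19 alternatives. The Cr2 call (-2.15, SE 0.72, adjusted p = 0.0398) passed in 5 of 19, and its groups overlapped, with 0.348, 4.97 and 1.94 CPM in DEN+CCl4 depletion 6, 9 and 10. Total-count scaling raised all genes by a median of 0.32 here, with 5578 higher and 1187 lower calls over all genes instead of 3051 and 2689.

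The immunoglobulin chains changed their proportions between groups. Igkc counts per Ighm count were 10.7, 15.7 and 6.33 in DEN+CCl4 controls and 18.2, 12.8 and 9.51 in DEN+CCl4 depletion, with overlap. In N-Ras+AKT controls the ratio was 3.08, 4.34 and 3.22, and with depletion it was 0.738, 2.12 and 0.941. The N-Ras+AKT groups did not overlap with each other or with DEN+CCl4. Jchain counts per Igkc count ran from 0.289 to 0.494 over all 12 libraries. N-Ras+AKT depletion (0.386, 0.289 and 0.354) lay below every DEN+CCl4 library (0.439 or more) but overlapped with N-Ras+AKT controls (0.401, 0.349 and 0.450). Membrane and secreted Ighm transcripts were not told apart in these gene counts.

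**Figure D4:**
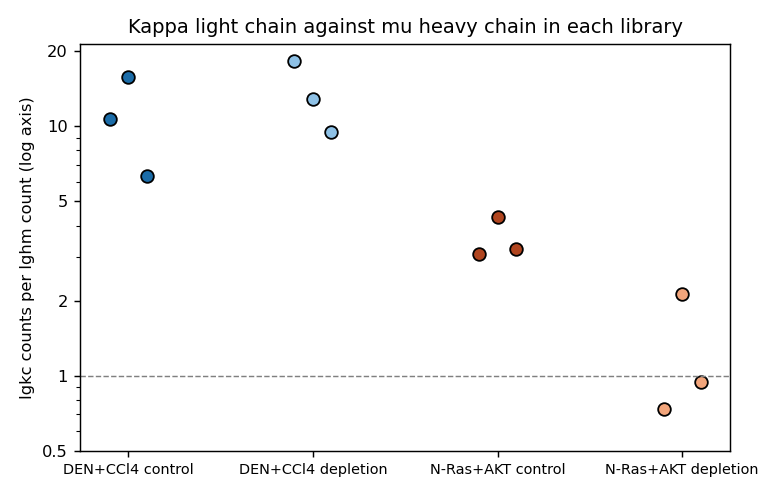
Igkc counts per Ighm count in each library, on a log axis, 3 points a group; the dashed line is a ratio of 1. DEN+CCl4 libraries lie between 6.33 and 18.2, N-Ras+AKT controls between 3.08 and 4.34, and 2 of the 3 N-Ras+AKT depletion libraries under 1.

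Summed over the 19 T/NK genes, the level was 5.45 to 9.40 CPM in DEN+CCl4 controls, 2.75 to 4.38 CPM in DEN+CCl4 depletion, 4.03 to 9.07 CPM in N-Ras+AKT controls and 11.0 to 22.5 CPM in N-Ras+AKT depletion. The sum of the 11 B/plasma genes other than Ighm, Igkc and Jchain was 10.3 to 15.8, 2.02 to 8.39, 3.48 to 4.77 and 6.83 to 15.0 CPM in the same order. Within each model, control and depletion did not overlap in either sum. Ighm, Igkc and Jchain together came to 93.4 to 166 CPM in DEN+CCl4 controls and 44.0 to 79.8 CPM with depletion, but to 7.89 to 9.17 and 14.8 to 33.7 CPM in N-Ras+AKT. Per unit of summed T/NK level these 3 were 11.1 to 28.7 in the DEN+CCl4 libraries and 0.974 to 1.96 in the N-Ras+AKT libraries.

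**Figure D5:**
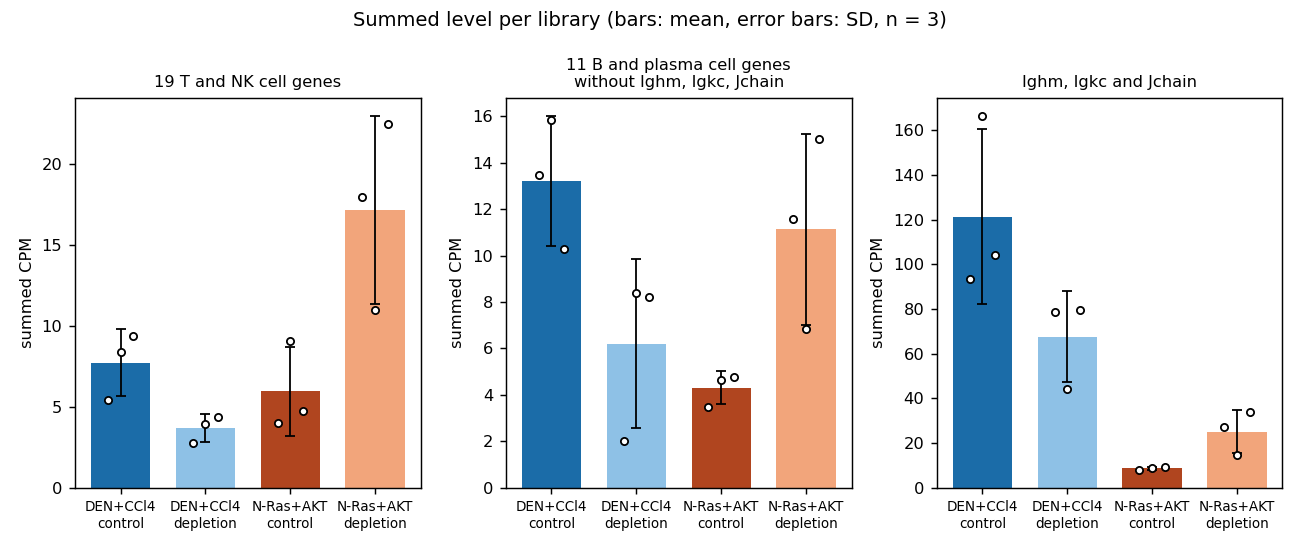
Summed CPM per library for the T/NK genes, for the B/plasma genes other than Ighm, Igkc and Jchain, and for these 3; bars are means, error bars SD and points the 3 libraries of a group. The T/NK sum is highest in N-Ras+AKT depletion (11.0 to 22.5 CPM), and the immunoglobulin sum is highest in DEN+CCl4 controls (93.4 to 166 CPM).

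Set against each other within a library, the lineages had shifts of the same sign. The mean over genes of log2(CPM + 0.1), taken relative to the control mean of the same model, was lower than 0 for both lineages in each DEN+CCl4 depletion library (T/NK -1.07, -0.63 and -0.55; B/plasma -1.77, -1.29 and -0.61 in depletion 6, 9 and 10). It was higher than 0 for both in each N-Ras+AKT depletion library (T/NK 1.18, 0.65 and 1.39; B/plasma 1.35, 0.67 and 1.75 in depletion 6, 11 and 17). The T/NK minus B/plasma difference was 0.70, 0.66 and 0.06 in DEN+CCl4 depletion, where controls ran from -0.35 to 0.50. In N-Ras+AKT depletion it was -0.17, -0.03 and -0.36, inside the control range of -0.28 to 0.41 except for depletion 17. With the genes under 1 CPM left out, Gzma alone represents T/NK cells, and the mean difference went from 0.47 to -0.38 in DEN+CCl4 and from -0.19 to 1.55 in N-Ras+AKT.

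Other genes of these lineages were counted from lists, to be read beside the 12.8% of all genes higher and 10.8% lower with depletion in N-Ras+AKT. With depletion in N-Ras+AKT, 5 of 16 tested T cell receptor pathway genes were higher, among them the costimulator Icos (1.89, SE 0.37, adjusted p = 0.00602) and Themis (1.66, SE 0.50, adjusted p = 0.0365), and 0 lower. Themis was also higher in N-Ras+AKT than in DEN+CCl4 controls (log2 difference 4.97), a comparison in which 0 of the 17 tested T/NK genes passed. Of 20 cytotoxic and NK genes 9 were tested and 3 were higher, with the activating receptor gene Klrk1 at 2.0 (SE 0.44, adjusted p = 0.00953) and Il2rb at 1.69 (SE 0.46, adjusted p = 0.0230). Through which groups the genes of these lists passed the filter on low counts was not examined. Of 9 tested genes of T cell regulation and exhaustion 0 passed, and the smallest adjusted p was that of Havcr2 (-0.98, SE 0.34, adjusted p = 0.0586). Among 18 tested B cell genes 7 were higher, including the delta heavy chain Ighd (2.29, SE 0.75, adjusted p = 0.0476), Spib (2.15, SE 0.71, adjusted p = 0.0463) and Fcrla (2.0, SE 0.61, adjusted p = 0.0350), and 0 lower. Among 15 plasma cell and immunoglobulin genes 4 were higher, including Ighg2b (1.81, SE 0.45, adjusted p = 0.0147), and 0 lower. The estimates in that list were mixed, 9 above 0 and 6 below. Its summed level over 17 genes was 580 to 604 CPM in N-Ras+AKT controls and 489 to 534 CPM with depletion. That sum follows its most abundant genes, and the median log2 difference of the 15 tested genes was 0.93.

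Ligands and homing receptors were counted in the same comparison, beside the same 12.8% higher and 10.8% lower. Of 14 tested chemokine and survival factor genes 1 was higher, the chemokine Cxcl12 (1.04, SE 0.15, adjusted p = 0.00334), and 2 were lower, Ltb, which encodes lymphotoxin beta (-2.60, SE 0.45, adjusted p = 0.00451), and Cxcl16 (-0.81, SE 0.25, adjusted p = 0.0337). Of 9 tested homing receptors 4 were higher, with the integrin Itgal at 1.67 (SE 0.35, adjusted p = 0.00861) and Itgb7 at 1.52 (SE 0.41, adjusted p = 0.0218), and 0 lower. In DEN+CCl4 depletion 0 genes of any of these 7 lists passed. The smallest adjusted p values there were those of Ccr7, the receptor that leads lymphocytes to lymph nodes (-2.82, SE 0.67, adjusted p = 0.0737), the B cell adaptor Blnk (-1.67, SE 0.41, adjusted p = 0.0780) and Irf4, a factor of plasma cell differentiation (-1.80, SE 0.48, adjusted p = 0.0886).

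Between the controls, 10 of 15 plasma cell and immunoglobulin genes were lower in N-Ras+AKT and 0 higher, beside 19.8% of all genes lower and 20.8% higher. The alpha heavy chain Igha had the largest difference (-4.47, SE 0.34, adjusted p = 1.52e-05), followed by Ighg1 (-3.94, SE 0.79, adjusted p = 0.00224) and the lambda chain gene Iglc1 (-3.75, SE 0.43, adjusted p = 8.86e-05). Of 14 chemokine and survival factor genes 5 were higher, led by the chemokine Ccl20 (5.06, SE 0.77, adjusted p = 0.000442) and by Ltb (2.71, SE 0.46, adjusted p = 0.000931). In that list 3 were lower, led by Tnfsf13, which encodes APRIL (-3.31, SE 0.37, adjusted p = 0.000102). Of 18 B cell genes 7 were lower, led by Vpreb3 (-3.51, SE 0.97, adjusted p = 0.0135), and 1 was higher, Ebf1 (1.80, SE 0.57, adjusted p = 0.0255), which fibroblasts also express. Of 16 T cell receptor pathway genes 4 were lower and 2 higher, close to the shares over all genes, among them Zap70 at -2.46 (SE 0.53, adjusted p = 0.00412) and Themis at 4.97 (SE 0.67, adjusted p = 0.000347).

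Markers of other cells moved in the same comparisons. With depletion in N-Ras+AKT, 11 of 13 macrophage and Kupffer cell markers and 5 of 8 pan-leukocyte markers were higher and 0 lower, beside 12.8% of all genes higher and 10.8% lower. Their summed levels went from 239 to 454 CPM in controls to 665 to 877 CPM, and from 122 to 159 to 172 to 251 CPM. Of 7 tested dendritic cell markers 2 were higher, with summed levels of 58.3 to 77.7 CPM in controls and 107.5 to 129.3 CPM with depletion. Of 8 tested neutrophil markers 0 passed, at an unadjusted p under 0.05 also 0. Bile duct cell markers, at 7115 to 10300 CPM in N-Ras+AKT controls, came to 298 to 3469 CPM with depletion, 4 of 6 lower. In DEN+CCl4 depletion 0 markers of these lists passed, but the red blood cell markers summed to 3.62 to 19.5 CPM against 47.4 to 89.1 CPM in controls, and the endothelial markers to 111 to 227 CPM against 318 to 331 CPM. The sums also lay apart for dendritic cell markers (30.4 to 65.1 against 85.4 to 87.9 CPM), bile duct cell markers (31.9 to 139 against 177 to 479 CPM), stellate cell and fibroblast markers (89.7 to 231 against 240 to 349 CPM) and pan-leukocyte markers (84.3 to 113.8 against 114.3 to 125.6 CPM). A sum follows its most abundant genes. By gene, depletion lay wholly below controls for 3 of 7 tested dendritic and 2 of 6 bile duct cell markers. That held for 4 of 7 stellate cell and fibroblast and 2 of 8 pan-leukocyte markers, beside 16% of all genes. For the red blood cell and endothelial markers it was 5 of 5 tested and 6 of 7. Neutrophil markers were at 12.3 to 13.6 CPM against 6.32 to 8.28 CPM in controls. Between the controls, all 5 tested red blood cell markers and all 6 bile duct cell markers were higher in N-Ras+AKT, and 6 of 8 hepatocyte markers lower, beside 20.8% of all genes higher and 19.8% lower. The dendritic cell marker Cd209a had 0 counts in all 3 DEN+CCl4 depletion libraries. Several markers of that list were near the floor: of its 9 genes, 4, 3 and 2 had 0 counts in DEN+CCl4 depletion 6, 9 and 10. In DEN+CCl4 controls 7, 8 and 13 it was 1, 1 and 0 of them. The part of each of these cell types in the lymphocyte results was not tested.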

How the data were processed

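Bulk RNA of 12 liver tumour libraries (4 groups of 3) was analysed; 6 samples of single cells were not analysed here. Per the labels' protocols, poly-A RNA from frozen tissue was made into libraries with the KAPA mRNA HyperPrep kit. The authors deposited 1 table of raw whole-number counts by gene. The series' tools, per the submitters' processing notes, included RSEM 1.3.1, STAR 2.7.3 and Cell Ranger 3.0.2 with mm10; their roles are not stated, so the deposited counts may be rounded RSEM estimates in which reads of near-identical genes are split. Trbc2 (against Trbc1), Klrb1c, Gzmb and the immunoglobulin genes may share reads in this way. Annotation release and strand setting: not given in the sources used here. Symbols were matched for 55154 of 55335 identifiers through GENCODE M21 on GRCm38; the other 181 held 0.00642% of the counts.

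All 12 libraries entered 1 fit of 4 group means (edgeR 4.0.16, quasi-likelihood, robust, TMM factors 0.773 to 1.32, filterByExpr, 8 residual degrees of freedom, R 4.3.3), with 5 two-sided contrasts. Passing means an adjusted p (Benjamini-Hochberg, 17013 genes tested) under 0.05. SE are those implied by the F statistic. Alternatives were RLE and total-count scaling, DESeq2 1.42.0, limma 3.58.1 (voom), no filter, only the groups compared, and each library left out. The procedure was tested on simulated data. Counting intervals are exact, at 95%, and cover counting error only. No pair of libraries in a group agreed within sampling noise.

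The genes described and the companion lists were chosen with earlier results of these data known. All 33 genes are accounted for; of the companion lists, counts are given with at most 3 genes per list and direction (the largest differences that passed, or where none passed the smallest adjusted p).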

Additional observations from a re-analysis of the deposited data

Results flagged for a closer look

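For 17 lymphocyte genes the effect of Prom1 depletion differed between the N-Ras+AKT and DEN+CCl4 models by edgeR's quasi-likelihood test of the difference of effects. In each the difference, N-Ras+AKT minus DEN+CCl4 on the log2 scale, was above 0. Among T/NK genes it was 3.12 for Cd3d, 3.27 for Cd3g, 3.48 for Cd8a, 2.72 for Cd4, 3.44 for Nkg7, 3.83 for Gzma, 3.86 for Gzmk and 1.88 for Lck. Among B/plasma genes it was 4.04 for Ms4a1, 4.50 for Cd79a, 2.84 for Cd79b, 3.97 for Ighm, 1.88 for Igkc, 1.74 for Jchain, 4.99 for Fcer2a, 5.80 for Fcmr and 2.44 for Bank1. The value for Fcmr rests on 2 counts in the DEN+CCl4 depletion libraries and is no bound. The models also differ in the days after tamoxifen (16 and 6) and in their title prefix, which cannot be told apart from the model.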

How the results depend on the processing

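No paired analysis was possible because the groups compared share fewer than 2 replicate numbers. Counts of genes passing are given as T/NK and B/plasma. Depletion in DEN+CCl4, 0 and 0 lower, gave 1 and 1 with DESeq2 and 0 to 1 for each with 1 library left out. Depletion in N-Ras+AKT, 5 and 8 higher, gave 3 T/NK genes with total-count scaling, 2 with only the groups compared, and 0 to 6 T/NK and 1 to 10 B/plasma genes with 1 library left out. The difference of effects, 8 and 9 higher, gave 5 T/NK genes with limma voom, and 2 to 10 and 5 to 11 with 1 library left out. Controls of N-Ras+AKT against DEN+CCl4, 0 T/NK lower, gave 1 with DESeq2 and 1 with limma voom, and 0 to 3 with 1 library left out. Among depletion libraries, 12 T/NK higher and 7 B/plasma higher gave 3 B/plasma with only the groups compared, and 4 to 8 B/plasma with 1 library left out. Leaving out DEN+CCl4 depletion 6 and N-Ras+AKT depletion 17, chosen after seeing the data, gave 0 and 2 higher for depletion in N-Ras+AKT, 1 and 3 for the difference of effects, and 6 and 1 among depletion libraries. The 1 T/NK gene in the difference of effects was not among the 8 called with all libraries. The mean T/NK minus B/plasma difference went to -0.381 and 1.55 without genes under 1 CPM. Estimates that changed sign were Cd3e in DEN+CCl4 (0.106 without depletion 6 and N-Ras+AKT depletion 17, -0.635 to 0.102 with 1 library left out), Blk in DEN+CCl4 (-1.395 to 0.011) and Tnfrsf13b in N-Ras+AKT (-0.105 to 0.555). The cause of these shifts was not tested, beyond the fewer libraries left. Where 1 count is worth up to 0.0356 CPM, differences in the 13 genes under 1 CPM in every library rest on few counts.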
